A study of Mus musculus with 22 samples.

Results

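The Ikaros zinc finger family comprises 5 genes, Ikzf1 (Ikaros), Ikzf2 (Helios), Ikzf3 (Aiolos), Ikzf4 (Eos) and Ikzf5 (Pegasus). The members were chosen by family name, and the family was picked because Ikzf2 had been noted as lower in Arid1a-deficient granulocyte-macrophage progenitors, so that contrast is described here and not tested. All 5 were found among the 47311 genes in the files by summing the estimated counts and TPM (transcripts scaled by length and library size) of every transcript of a gene. RNA was sequenced from sorted bone marrow cells of C57BL/6 mice whose Arid1a alleles carried loxP sites around exon 9. Mice with the Mx1-Cre transgene (Arid1a f/f;Mx1-Cre+, KO) were compared with mice without it (Arid1a f/f;Mx1-Cre-, WT). Mx1-Cre is induced by interferon in many cell types, and mice of both genotypes received poly(I:C), in 5 doses of 300 µg from an age of 8 to 14 weeks, and their cells were sorted 4 weeks later. Common myeloid progenitors (CMP), granulocyte-macrophage progenitors (GMP) and megakaryocyte-erythroid progenitors (MEP) came from 3 WT mice (300, 305 and 309) and 3 KO mice (301, 304 and 308), each of which gave all 3 populations. Long-term hematopoietic stem cells (LT-HSC, CD34-Flt3- LSK) came from 2 other WT mice (S245 and S269) and 2 other KO mice (S244 and S270). LT-HSC libraries came from another kit, SMART-Seq v4 rather than TruSeq, so their values are set beside those of the other populations without a test.

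Ikaros family proteins bind DNA through a cluster of C2H2 zinc fingers near the amino terminus and pair with themselves and with each other through further fingers at the carboxyl terminus. They act in large part by bringing the NuRD chromatin remodelling complex and other corepressors to their target genes. Ikaros is needed for the lymphoid lineages and is also present in stem cells and in myeloid and erythroid progenitors. Helios, Aiolos and Eos are best known from lymphocytes, and Pegasus is the most distant relative. Alternative splicing of the Ikaros gene yields proteins that lack some of the DNA-binding fingers.

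The 22 libraries held 40804031 to 65930737 estimated counts on genes. The LT-HSC library of WT mouse S245 stood apart, with at least 10 counts on 27257 genes against 18557 to 22465 in the other 3 LT-HSC libraries, at the lowest total. Arid1a was lower in KO than in WT in every population, with log2 differences of -0.40 in GMP, -0.22 in CMP and -0.14 in MEP (adjusted p = 0.0246, 0.0284 and 0.0836, quasi-likelihood test in edgeR, Benjamini-Hochberg adjusted). In LT-HSC it was -1.14 (adjusted p = 0.421, edgeR). Transcripts without exon 9 can still be counted, so these values do not measure the loss of the protein. Each sorted population carried its own markers, but LT-HSC also carried those of other lineages. The 6 GMP markers summed to 32493 to 36696 CPM (counts scaled to a common library size) in WT GMP and to at most 4981 CPM in WT CMP, and the 6 MEP markers to 4880 to 5802 CPM in WT MEP and to at most 924 CPM in WT CMP. The 7 LT-HSC markers summed to 900.2 and 966 CPM in WT LT-HSC and to at most 112 CPM in a WT progenitor library. In WT LT-HSC the MEP markers summed to 1114 to 2906 CPM and the GMP markers to 218 to 1254 CPM. The 7 mature neutrophil markers summed to 98.6 to 949.6 CPM there. Levels below are CPM after TMM normalization unless TPM is named, and differences are log2 values fitted by edgeR with their standard error (SE). In bulk RNA, fewer cells that express a gene cannot be told apart from less of its RNA in each cell.

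Coding exons in which Ikaros and Helios transcripts differ are shown first. The transcripts among which the counts were divided also differ elsewhere, as in their first and last exons. Ikzf1 lies on chromosome 11 (11685003 to 11772926, plus strand, GRCm38). Ikzf1-203 holds a coding exon of 60 bases, chr11:11740950-11741009, that Ikzf1-204 skips. In the sequences, read from the GENCODE vM21 transcripts on the coding strand, capitals mark that exon and lower case the neighbouring exon bases.
Ikzf1-203: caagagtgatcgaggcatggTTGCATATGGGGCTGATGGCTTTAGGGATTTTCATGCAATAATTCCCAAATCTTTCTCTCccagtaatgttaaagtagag
Ikzf1-204: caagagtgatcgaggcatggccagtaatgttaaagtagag
The next exon of Ikzf1-203, of 261 bases at chr11:11748311-11748571, is also in Ikzf1-204 and in neither Ikzf1-201 nor Ikzf1-202. Capitals mark the 63 bases that code for a C2H2 finger, found by the spacing of its cysteine and histidine codons.
Ikzf1 finger exon: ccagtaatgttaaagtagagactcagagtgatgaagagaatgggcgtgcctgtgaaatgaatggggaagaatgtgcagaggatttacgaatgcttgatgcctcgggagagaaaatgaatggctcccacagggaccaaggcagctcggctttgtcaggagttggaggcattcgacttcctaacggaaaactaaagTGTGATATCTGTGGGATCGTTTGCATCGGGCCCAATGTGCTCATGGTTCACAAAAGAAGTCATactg
The corresponding exon of Ikzf2 (chromosome 1, 69531214 to 69687245, minus strand) has 267 bases in Ikzf2-201, chr1:69577781-69578047. Capitals mark its last 78 bases, which Ikzf2-202, Ikzf2-204 and Ikzf2-208 leave out and which overlap the finger coded in this exon.
Ikzf2 exon: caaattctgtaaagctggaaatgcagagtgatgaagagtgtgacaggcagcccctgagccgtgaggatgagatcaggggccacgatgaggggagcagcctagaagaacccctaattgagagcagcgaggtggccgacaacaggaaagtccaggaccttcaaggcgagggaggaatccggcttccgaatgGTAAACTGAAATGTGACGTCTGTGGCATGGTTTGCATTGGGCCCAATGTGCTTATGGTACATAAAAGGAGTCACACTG
The same search found 6 fingers in Ikzf1-203 and Ikzf1-204 and 5 in Ikzf1-201, and 6 in Ikzf2-201 and 5 in Ikzf2-202.

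In WT mice Ikzf1 was the most abundant member per transcript length, and its level separated the progenitor populations. In mice 300, 305 and 309 it stood at 364, 353 and 369 CPM in CMP, at 295, 279 and 287 CPM in GMP and at 547, 569 and 534 CPM in MEP. The 3 populations did not overlap, with MEP highest and GMP lowest. MEP were above CMP by 0.60 (SE 0.05, adjusted p = 7.15e-06), and GMP were below CMP (-0.33, SE 0.05, adjusted p = 0.000903) and below MEP (-0.93, SE 0.05, adjusted p = 4.24e-07, quasi-likelihood test in edgeR with the mouse as a block). Calls between populations were common, since at a false discovery rate (FDR) under 0.1 they took in 72.4% of genes between WT MEP and CMP, 45.3% between WT GMP and CMP and 72.6% between WT GMP and MEP. In TPM, the WT means of Ikzf1 were 302 ± 16.6 in MEP, 168 ± 13.1 in CMP and 105 ± 4.08 in GMP (SD, n = 3), and no other member exceeded 20.6 TPM in any progenitor library.

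Ikzf2 was high in WT CMP and GMP and low in WT MEP. It stood at 66.2, 47.8 and 51.3 CPM in WT CMP and at 7.24, 3.44 and 7.48 CPM in WT MEP. Every MEP library was below every CMP library (-3.21, SE 0.18, adjusted p = 8.28e-07, quasi-likelihood test in edgeR), a 9.24-fold lower level. WT GMP, at 52.6, 46.5 and 48.7 CPM, overlapped with WT CMP, and the difference of -0.14 (SE 0.16) carries no test because the WT GMP libraries served to choose the family. Ikzf1 and Ikzf2 thus moved in opposite directions from CMP to MEP. Over the 18 progenitor libraries, which share mice and populations, their log2 levels had a Pearson r of -0.57.

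Ikzf3 (chromosome 11, 98464902 to 98546031, minus strand) was highest in GMP among the WT progenitors. WT GMP had 2.7, 4.14 and 4.03 CPM, from 161 to 208 counts, whereas WT CMP had 10 to 38 counts and WT MEP 10 to 14. GMP exceeded CMP by 3.27 (SE 0.37, adjusted p = 0.000176) and MEP by 3.76 (SE 0.40, adjusted p = 3.26e-05), and MEP and CMP were not called apart (-0.49, SE 0.44, adjusted p = 0.358, quasi-likelihood test in edgeR). Ikzf4 (chromosome 10, 128630843 to 128645991, minus strand) passed the filter on low counts in no progenitor population. It had 0 to 10 counts in each of the 18 progenitor libraries. The 3 libraries of KO mouse 304 had 0, which allows up to 0.0494 CPM in CMP, 0.0576 CPM in GMP and 0.0569 CPM in MEP (3 counts, counting error only). Of the 8 annotated transcripts of Ikzf4, 1 was among those counted.

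Ikzf5 (chromosome 7, 131388652 to 131410521, minus strand) varied least. Its WT means were 42.1 ± 3.7 CPM in MEP, 41.3 ± 1.38 CPM in CMP and 41.2 ± 2.99 CPM in GMP (SD, n = 3), and no pair was called apart (adjusted p = 0.779 to 0.984, quasi-likelihood test in edgeR). Counting 2 SE on either side, the MEP less CMP difference lay between -0.12 and 0.17. With an offset for transcript length that difference was 0.29 (adjusted p = 0.0479, edgeR) and the GMP less MEP difference was -0.38 (adjusted p = 0.0148, edgeR). In summed TPM the WT means were 18.6 ± 3.04 in MEP, 18.5 ± 2.11 in CMP and 15.7 ± 1.12 in GMP (SD, n = 3), so MEP and CMP were near-equal there too and GMP was lower.

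**Figure D1:**
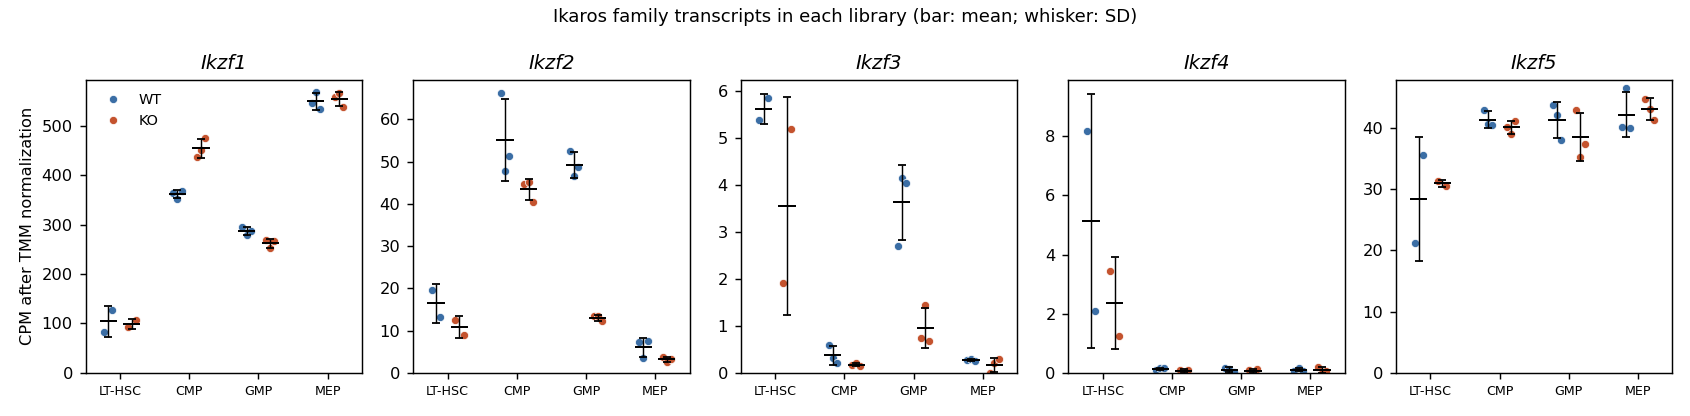
Level of each member in every library (CPM after TMM normalization, linear axes from 0) by population and genotype, where a point is 1 library, the bar the mean and the whisker the SD. Ikzf1 is lowest in LT-HSC and highest in MEP, Ikzf2 is low in MEP and in KO GMP, Ikzf3 is highest in LT-HSC and WT GMP, Ikzf4 is seen in LT-HSC, and Ikzf5 lies between 35.2 and 46.4 CPM in the progenitors.

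The LT-HSC libraries held all 5 members. In WT they also held lymphocyte markers. At 1 CPM or more stood 7 of 7 T and NK cell, 5 of 6 B cell and 5 of 5 plasmacytoid dendritic cell markers. These numbers were 3, 1 and 2 in WT CMP and in WT GMP, and 1, 1 and 2 in WT MEP. The part of such cells in the LT-HSC levels of the members was not tested. In WT mice S245 and S269, Ikzf1 stood at 81.9 and 127 CPM, Ikzf5 at 21.2 and 35.5 CPM, Ikzf2 at 19.7 and 13.2 CPM, Ikzf3 at 5.38 and 5.84 CPM and Ikzf4 at 8.18 and 2.1 CPM. The 4 LT-HSC libraries had 61 to 401 counts of Ikzf4, more than any progenitor library, with the highest in the library of mouse S245 that stood apart. Per transcript length the WT means were 75.8 TPM for Ikzf1, 14.4 for Ikzf5, 5.81 for Ikzf2, 4.14 for Ikzf3 and 1.45 for Ikzf4. In that order no neighbouring pair overlapped between the WT libraries.

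The family was chosen for the contrast between KO and WT GMP. Ikzf2 was 52.6, 46.5 and 48.7 CPM in WT mice and 13.5, 13.4 and 12.2 CPM in KO mice 301, 304 and 308. The groups lay far apart, and the fitted difference was -1.93 (SE 0.077), a 3.81-fold lower level. Ikzf3 showed a difference of nearly the same size (-1.94, SE 0.32), from 2.7, 4.14 and 4.03 CPM in WT to 0.743, 1.44 and 0.673 CPM in KO, on 34 to 69 counts in KO. Ikzf1 was 295, 279 and 287 CPM in WT and 263 ± 9.58 CPM in KO (SD, n = 3), the lowest KO library being at 252 CPM, so the groups did not overlap but differed by only -0.14 (SE 0.059). Ikzf5 overlapped, with 43.7, 42.1 and 37.9 CPM in WT and 42.8, 35.2 and 37.3 CPM in KO (-0.11, SE 0.087). In this contrast 33.9% of all genes tested were called, and nothing is read from the members against that share.

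Markers of other cells moved in the same GMP libraries. The 6 basophil and mast cell markers summed to 896 to 1305 CPM in WT GMP and to 461 to 501 CPM in KO GMP, with 5 called lower, none higher and none at 0. Prss34, a basophil protease, was 199.8 ± 94.4 CPM in WT and 6.77 ± 2.02 CPM in KO (SD, n = 3). All 6 GMP markers were called higher in KO GMP, where 33.9% of all genes were called. Of 7 LT-HSC markers 4 were called lower and 1 higher, and of 6 MEP markers 3 lower and 1 higher. Of 7 mature neutrophil markers 3 were called higher and 2 lower, and of 5 monocyte and macrophage markers 2 each way. Of 6 megakaryocyte markers 2 were called lower and 1 higher. Of 5 T and NK cell markers tested 1 was called each way, and of 4 plasmacytoid dendritic cell markers tested 1 was called lower. The 6 B cell markers, of which Cd79b alone exceeded 1 CPM, showed no call by edgeR and summed to 25.9 to 27.3 CPM in WT and 22.4 to 27.9 CPM in KO. The part of these shifts in the difference of Ikzf2 was not tested.

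In CMP, Ikzf1 was higher and Ikzf2 lower in KO. This contrast was not the one noted in choosing the family. Its libraries come from the same mice as the GMP libraries, however, and earlier results of these data were known. Ikzf1 was 364, 353 and 369 CPM in WT and 437, 451 and 476 CPM in KO. Every KO library was above every WT library (0.32, SE 0.053, adjusted p = 0.00355, quasi-likelihood test in edgeR), a 1.25-fold higher level. Ikzf2 was 66.2, 47.8 and 51.3 CPM in WT and 44.6, 45.2 and 40.5 CPM in KO, again without overlap (-0.35, SE 0.12, adjusted p = 0.0731, edgeR). The Ikzf2 call was lost when any library other than that of WT mouse 305 was left out (adjusted p up to 0.194, edgeR) and with an offset for transcript length (-0.19, adjusted p = 0.534, edgeR). Ikzf3 had 38, 19 and 10 counts in WT and 9, 14 and 8 in KO, and its difference of -1.09 (SE 0.46) was not called (adjusted p = 0.152, edgeR). Ikzf5 differed by -0.051, between -0.17 and 0.069 at 2 SE. Of the 4 members tested in CMP 2 were called, against 23.4% of all genes.

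Lineage markers shifted in the same CMP libraries. Of 6 MEP markers, 4 were called higher and none lower in KO CMP, where 23.4% of all genes were called. Their sum was 825 to 924 CPM in WT and 989 to 1157 CPM in KO. Klf1, an erythroid transcription factor, rose from 59.2 ± 8.2 to 132 ± 19.8 CPM, and Mpo, a granule enzyme of GMP, fell from 3773 ± 392 to 1453 ± 396 CPM (SD, n = 3). Of 6 GMP markers 3 were called lower and none higher. Of 6 basophil and mast cell markers 5 were called lower in KO CMP, with sums of 103 to 254 CPM in WT and 74.9 to 81.7 CPM in KO. Of 7 mature neutrophil markers 5 were called lower and none higher in KO CMP. Of 6 megakaryocyte markers 5 were called lower and 1 higher, Gp9, which rose from 15.4 ± 3.03 to 25 ± 1.94 CPM (SD, n = 3). Of 7 LT-HSC markers 2 were called each way, and of 5 monocyte and macrophage markers 1 each way. Of 4 T and NK cell markers tested 2 were called lower and none higher. Of 5 B cell markers tested 1 was called lower, near the share over all genes. No plasmacytoid dendritic cell marker was called by edgeR. The part of these shifts in the differences of Ikzf1 and Ikzf2 was not tested.

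In MEP, Ikzf1 was 547, 569 and 534 CPM in WT and 559, 566 and 539 CPM in KO. The groups overlapped, and the difference of 0.0097 lay between -0.076 and 0.095 at 2 SE. Ikzf2 was 7.24, 3.44 and 7.48 CPM in WT and 3.66, 2.59 and 3.32 CPM in KO (-0.93, SE 0.30, adjusted p = 0.0592, quasi-likelihood test in edgeR). WT mouse 305 lay among the KO libraries. Without that library the difference was -1.21 (adjusted p = 0.00207, edgeR), and without any other single library the call was lost (adjusted p up to 0.185, edgeR). Ikzf3, on 0 to 16 counts, and Ikzf5 (0.028, between -0.12 and 0.18 at 2 SE) were not called. Of the 4 members tested in MEP 1 was called, against 29.4% of all genes. Basophil and mast cell markers were lower here too, with 3 of 5 tested called and sums of 3.74 to 7.33 CPM in WT and 1.69 to 2.8 CPM in KO. Other lists also held called genes in the same MEP libraries. Of 6 megakaryocyte markers 3 were called higher and none lower (sums of 36.3 to 59.4 CPM in WT and 94.8 to 114 CPM in KO), of 6 MEP markers 2 higher and 2 lower, and of 6 LT-HSC markers tested 2 higher and none lower. Of the T and NK cell markers 2 of 3 tested, of the plasmacytoid dendritic cell markers 2 of 4 and of the mature neutrophil markers 2 of 7 were called lower, and of 5 monocyte and macrophage markers 2 were called higher. The counts for the LT-HSC, mature neutrophil and monocyte and macrophage lists were near the 29.4% called over all genes. The part of these marker differences in the Ikzf2 difference was not tested.

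In LT-HSC none of the 5 members was called by edgeR, where the smallest unadjusted p was 0.216, nor by DESeq2, against 0.0792% of all genes by edgeR. Ikzf2 was 19.7 and 13.2 CPM in WT and 12.6 and 9.04 CPM in KO. Both KO libraries were below both WT libraries, but the difference of -0.60 (SE 0.46, adjusted p = 0.876, edgeR) lay between -1.52 and 0.32 at 2 SE. Ikzf3 was 5.38 and 5.84 CPM in WT and 1.91 and 5.19 CPM in KO (-0.66, SE 0.79). Ikzf4 was 8.18 and 2.1 CPM in WT and 3.46 and 1.25 CPM in KO (-1.12, SE 0.95), and the difference was 0.20 without WT mouse S245. Ikzf1 differed by -0.066 (SE 0.31) and Ikzf5 by 0.13 (SE 0.34). The median over all genes tested in LT-HSC was itself -0.16.

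**Figure D2:**
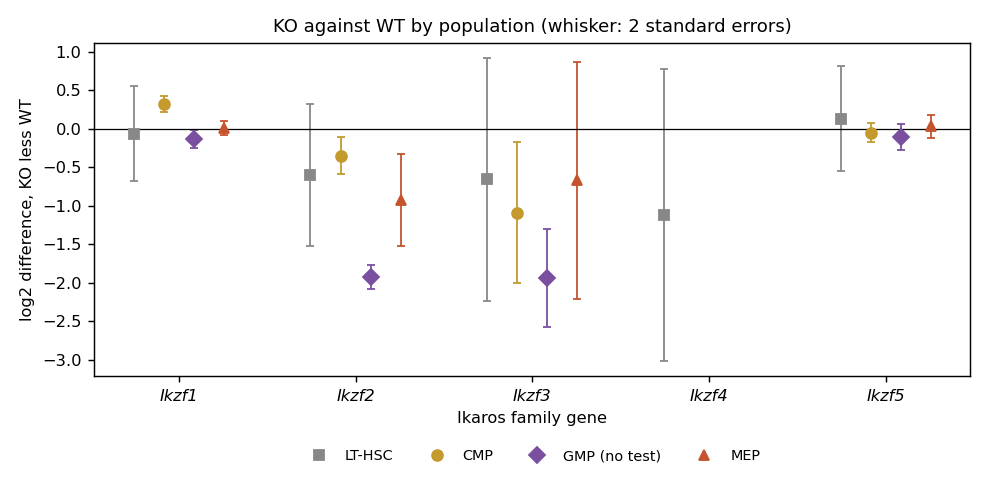
Fitted log2 difference of KO less WT for each member in each population, with whiskers of 2 SE, for members that passed the filter on low counts. Ikzf2 lies below 0 in all 4 populations, from -0.35 in CMP to -1.93 in GMP, and Ikzf1 lies above 0 by more than its whisker in CMP alone.

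The KO effects in MEP and CMP were compared in a fit of the 18 progenitor libraries with the mouse as a block. For Ikzf1 the effect in MEP less that in CMP was -0.32 (SE 0.072, adjusted p = 0.0134, quasi-likelihood test in edgeR). For Ikzf2 it was -0.56 (SE 0.23, adjusted p = 0.171), and -0.77 (adjusted p = 0.00971, edgeR) without mouse 305. Ikzf3 (0.38, SE 0.90) and Ikzf5 (0.075, SE 0.10) were not called. Of the 4 members tested 1 was called, against 13% of all genes.

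The Ikzf1 counts were divided by kallisto over 6 transcripts. Ikzf1-204, without the 60-base exon, took 45.9% to 57.9% of them in the progenitor libraries and Ikzf1-203, with it, 33.5% to 45%. Their last exons also differ, with 4046 bases in Ikzf1-204 and 3232 in Ikzf1-203, so these shares do not measure the 60-base exon alone. The mean share of Ikzf1-204 was 53.5 ± 4.39% in MEP, 50.7 ± 3.19% in CMP and 50.5 ± 3.14% in GMP (SD, n = 6). Its differences between populations did not pass an exact paired permutation test over mice (two-sided, adjusted p = 0.281 to 0.818), and neither did any of the 12 comparisons made for the leading transcripts of Ikzf1, Ikzf2, Ikzf3 and Ikzf5. Ikzf5-201 took 90.5 ± 1.5% of its gene's counts in CMP and 83.9 ± 5.07% in MEP, lower in MEP in 6 of 6 mice, with the smallest p that 6 mice allow (exact permutation p = 0.0312, adjusted p = 0.281). Ikzf5-207, a transcript annotated with a retained intron, took 3.89% to 8.25% in CMP and 5.32% to 13.7% in MEP. Ikzf2-201 took 91% to 97.2% of the Ikzf2 counts in the progenitors of both genotypes, and 49.9% to 81.1% of the Ikzf2 TPM. As shares of TPM rather than counts, 4 of the 12 comparisons passed (exact permutation, adjusted p = 0.0938 for each), the 3 of Ikzf1-204 and Ikzf5-201 between CMP and MEP. The order of Ikzf1-204 turned, since its mean share of TPM was 24.5 ± 2.65% in MEP, 31.5 ± 3.47% in CMP and 37.4 ± 2.68% in GMP (SD, n = 6), with MEP below CMP and below GMP in 6 of 6 mice. The mean TPM of Ikzf1-204 itself was 72.6 in WT MEP, 55.2 in WT CMP and 39.2 in WT GMP. The TPM total of the gene includes the short transcripts described below, 46.3% to 49.1% of it in WT MEP. Ikzf5-201 kept its direction, at 72.6 ± 6.45% in CMP and 55.4 ± 7.55% in MEP (SD, n = 6).

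A pair of short Ikzf1 transcripts, Ikzf1-205 (446 bases) and Ikzf1-206 (242 bases), was singled out after its values had been seen. Both begin at 11685003, upstream of the first exon of the longer transcripts (11685925 in Ikzf1-203). Together they took 3.16% to 3.49% of the Ikzf1 counts in WT MEP, 0.946% to 1.26% in WT CMP and 0.234% to 0.368% in WT GMP, so the populations did not overlap. In KO CMP they took 1.65%, 1.69% and 1.24% in mice 301, 304 and 308, overlapping with WT. In KO MEP they took 2.79% to 2.92%, below every WT MEP library. In CMP the KO less WT difference was 0.59 (SE 0.19, adjusted p = 0.209) for Ikzf1-205 and 1.47 (SE 0.38, adjusted p = 0.12, edgeR) for Ikzf1-206, and in MEP that of Ikzf1-205 was -0.29 (SE 0.10, adjusted p = 0.199, edgeR).

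Being short, these transcripts weigh more in TPM. They made up 46.3% to 49.1% of the summed Ikzf1 TPM in WT MEP, 18.4% to 21.8% in WT CMP and 4.43% to 6.89% in WT GMP. The ratio of KO to WT in CMP was 1.48 for the summed TPM, 1.31 without these transcripts and 1.26 in CPM. In MEP it was 0.963, 1 and 1.01. The direction in CMP was the same on the 3 scales.

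As a share of counts, Ikzf1-201 and Ikzf1-202, which skip the finger exon shown above, were small in the progenitors and larger in LT-HSC. This comparison was also chosen after the values had been seen. Together they took 4.48% to 9.33% of the Ikzf1 counts in the progenitor libraries. In LT-HSC the WT libraries stood at 27.7% and 28.5% and the KO libraries at 26.7% and 28.8%, so the genotypes overlapped. The short Ikzf1-205 skips the same exon, and with it the shares were 5.95% to 10.7% in the progenitors and 28.8% to 30.9% in LT-HSC. Of the summed Ikzf1 TPM, Ikzf1-201 alone took 17.9% to 22% in GMP, 10.2% to 17.2% in CMP and 7.47% to 12.7% in MEP. In LT-HSC it took 27.7% to 36.2%. Ikzf2-202, Ikzf2-204 and Ikzf2-208, whose exon lacks the 78 bases, together took 2.55% to 3.91% of the Ikzf2 counts in CMP and GMP. At 2013, 1365 and 1359 bases against 9278 in Ikzf2-201, they weigh more in TPM. There Ikzf2-202 alone took 4.89% to 11.2% of the gene in CMP. By counts again, the LT-HSC shares follow. In LT-HSC Ikzf2-202, Ikzf2-204 and Ikzf2-208 together took 10.8% and 6.61% in WT and 18.7% and 11.8% in KO, from 44 to 152 counts. The kit differed in LT-HSC, and Ikzf1-201 (1542 bases) and Ikzf1-202 (911 bases) are much shorter than Ikzf1-203 (4697 bases) and Ikzf1-204 (5163 bases), so the population, the kit and coverage along the transcript cannot be told apart. Within GMP the share of these Ikzf2 transcripts was 2.58% to 3.17% in WT and 2.7% to 2.84% in KO, where the gene as a whole was 3.81-fold lower.

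**Figure D3:**
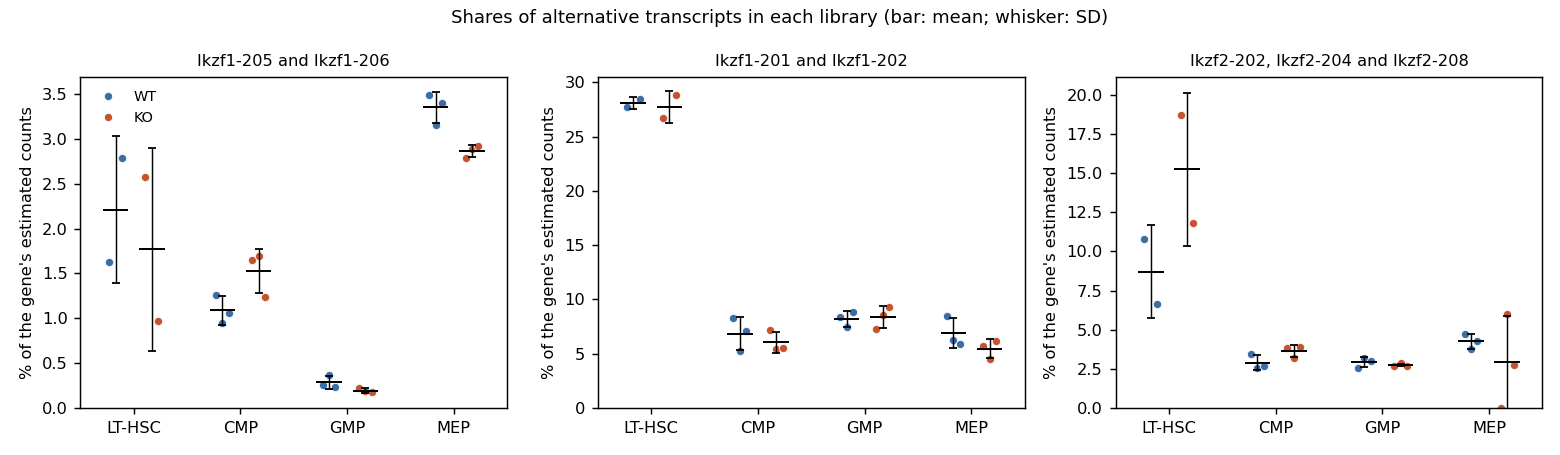
Share of a gene's estimated counts in each library (percent, linear axes from 0) by population and genotype, with the mean as a bar and the SD as a whisker, for Ikzf1-205 with Ikzf1-206, for Ikzf1-201 with Ikzf1-202 and for Ikzf2-202 with Ikzf2-204 and Ikzf2-208. The first pair, with the upstream exon, takes 2.79% to 3.49% in MEP and at most 0.368% in GMP, and the other sets take their largest shares in LT-HSC.

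Of the 27 counted transcripts of the family, 18 were tested in CMP, 12 in MEP and 20 in LT-HSC, and 1 was called. Over all transcripts 4.54% were called in CMP, 6.39% in MEP and 0% in LT-HSC by edgeR, where 2486 transcripts had an unadjusted p under 0.05 and none of them belonged to the family. The 1 called was Ikzf1-204 in CMP (0.33, SE 0.077, adjusted p = 0.0908), beside Ikzf1-203 (0.34, SE 0.091, adjusted p = 0.141, edgeR). Its call was lost with median-of-ratios size factors, without the filter on low counts and whenever a CMP library was left out (adjusted p = 0.117 to 0.271, edgeR). In GMP, where 8.46% of all transcripts were called, the members' values carry no test. Ikzf2-201 differed by -1.99 (SE 0.10) and Ikzf3-201 by -1.85 (SE 0.36). The files hold no resampled counts, so the error of dividing fragments between transcripts is not in these tests.

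The genes most alike to a member were the 5 with the highest Pearson r of log2(CPM + 0.5) over the 18 progenitor libraries, among 12792 genes with a mean of at least 1 CPM. The GMP libraries that served to choose the family are among the 18, so sharing a member's pattern follows from the selection. For Ikzf2 they were Tmem176b (0.991), Tmem176a (0.988), Mrgpre (0.988), Ttc21b (0.987) and Nav1 (0.982). Tmem176b, a membrane protein gene, had means of 147 CPM in WT CMP, 103 in WT GMP, 18.2 in KO GMP and 6.27 in WT MEP, where Ikzf2 had 55.1, 49.3, 13 and 6.05. For Ikzf1 they were Fam234b (0.990), Tfe3 (0.990), Atp7b (0.986), Golm1 (0.986) and Gramd4 (0.986). Atp7b, a copper transporter, had 12.6 CPM in WT CMP, 41.4 in KO CMP, 1.21 in WT GMP and 211 in WT MEP, a wider span than that of Ikzf1. For Ikzf5 the values were lower, with Faf2 (0.775), Fem1b (0.765), Psma8 (0.747), 2210418O10Rik (0.734) and Slfn3 (0.730). Ikzf3 and Ikzf4, with means of 0.927 and 0.0962 CPM, were left out.

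**Figure D4:**
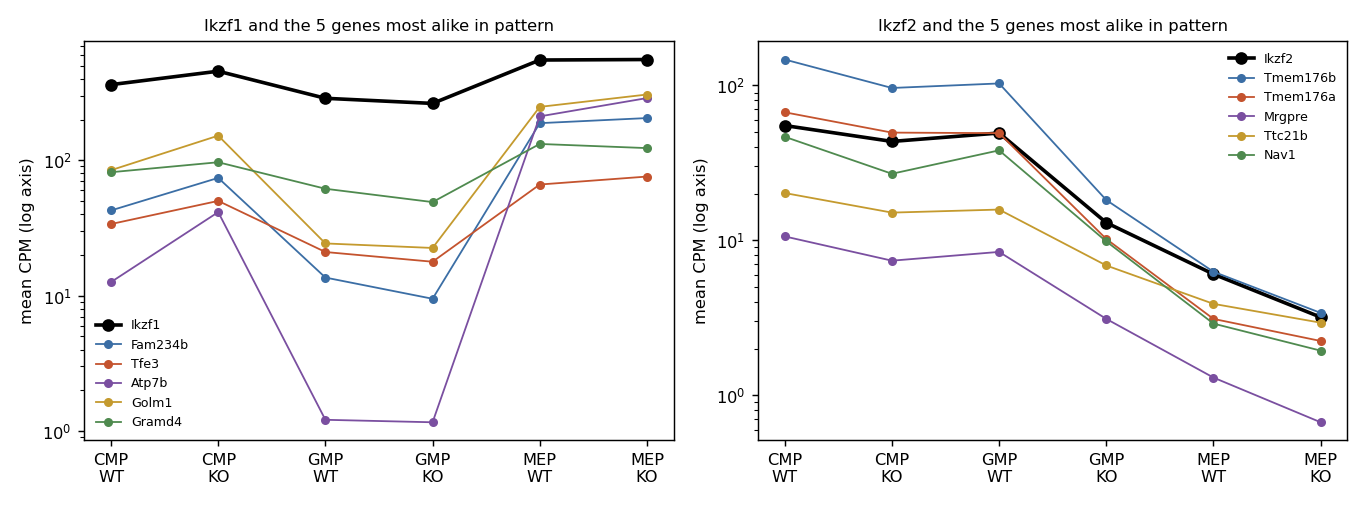
Mean CPM (log axis) of Ikzf1 and Ikzf2, each with the 5 genes most alike to it, in the 6 progenitor groups. By their selection, the genes alike to Ikzf2 share its pattern, lower in KO than in WT GMP and low in MEP. Those alike to Ikzf1 likewise are lowest in GMP and higher in KO than in WT CMP.

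All 14 genes of the NuRD complex were tested in each population, in which 23.4% of all genes were called in CMP, 33.9% in GMP and 29.4% in MEP. In CMP 2 were called higher and 2 lower (median -0.008, all genes -0.0027), in GMP 3 higher and 2 lower (median -0.0065, all genes -0.0056) and in MEP 2 higher and 6 lower (median -0.062, all genes -0.002), so the counts in CMP and GMP were close to the shares over all genes. Chd3, a remodelling ATPase of the complex, was 136 ± 13.6 CPM in WT CMP and 224 ± 16.2 CPM in KO CMP (SD, n = 3, difference 0.72, adjusted p = 0.000608, edgeR). In MEP it rose from 74.1 ± 11.5 to 167 ± 16.9 CPM (SD, n = 3, 1.17, adjusted p = 0.000347, edgeR), and in GMP it fell from 108 ± 2.88 to 66.9 ± 10.6 CPM (SD, n = 3, -0.70, adjusted p = 0.00131, edgeR). The groups did not overlap in any of the 3 populations. Mbd2, the methyl-CpG binding subunit, was called higher in KO in all 3, by 0.34 in MEP, 0.50 in GMP and 0.54 in CMP. Chd4, the other main ATPase, was lower in KO CMP, at 586 ± 20.9 and 504 ± 12.2 CPM (SD, n = 3).

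Of 5 other corepressors and partners, Ctbp2, a corepressor that binds Ikaros, was the 1 called in CMP and in MEP. It fell from 37.6 ± 1.35 to 19 ± 1.79 CPM in CMP (SD, n = 3, -0.99, adjusted p = 0.000168, edgeR) and from 22 ± 2.52 to 8.9 ± 1.98 CPM in MEP (SD, n = 3, -1.31, adjusted p = 0.00103, edgeR). In GMP 2 were called higher, Smarca4 (0.23) and Sin3a (0.16). The medians over the 5 were 0.084 in GMP, 0.032 in CMP and -0.032 in MEP. The cereblon ubiquitin ligase, through which thalidomide analogs degrade Ikaros and Aiolos in human cells, had 5 genes tested. Crbn was the 1 called, in GMP, from 33.5 ± 4.17 to 26.2 ± 2.05 CPM (SD, n = 3, -0.37, adjusted p = 0.0274, edgeR). The medians over these 5 were 0.021 in GMP, -0.00093 in CMP and -0.0058 in MEP. Over all genes 23.4% were called in CMP, 33.9% in GMP and 29.4% in MEP, so the counts for both lists were close to or below those shares.

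Early lymphoid genes, many of which depend on Ikaros, were called higher but never lower in KO CMP and lower but never higher in KO MEP. Of 14, 12 were tested in each progenitor population. In CMP 7 were called higher and none lower (median 0.67), in GMP 1 higher and 3 lower (median -0.20) and in MEP none higher and 5 lower (median -0.55). Over all genes 23.4% were called in CMP, 33.9% in GMP and 29.4% in MEP in either direction, and the 4 called in GMP are near that share. Il7r, the interleukin-7 receptor, was 1.67 ± 0.505 CPM in WT CMP and 14.7 ± 7.93 CPM in KO CMP (SD, n = 3, 3.14, adjusted p = 0.000944, edgeR), and Rag1, a recombinase of antigen receptor genes, 0.801 ± 0.266 and 5.01 ± 4.01 CPM (SD, n = 3, 2.64, adjusted p = 0.0131, edgeR). In MEP the T cell factor gene Tcf7 fell from 3.78 ± 1.9 to 0.835 ± 0.623 CPM (SD, n = 3). Rag1 was called lower there with overlapping groups, at 3.02 ± 3.56 CPM in WT and 0.444 ± 0.302 CPM in KO (SD, n = 3). The sum of the list overlapped in MEP too, at 30.1 to 92.6 CPM in WT and 44.6 to 69.5 CPM in KO. In GMP Satb1, a chromatin organizer, fell from 62.7 ± 9.19 to 25.6 ± 6.94 CPM (SD, n = 3). No B cell or T and NK cell marker was called higher in KO CMP, and their sums were 20.9 to 22.5 and 78.1 to 110.2 CPM in WT CMP and 14.2 to 16.3 and 54.8 to 61.4 CPM in KO CMP. Each sum came mostly from 1 gene, Cd79b (means of 20.3 CPM in WT and 13.5 CPM in KO) and Nkg7 (85.7 and 54.9 CPM). Nkg7 had a mean of 367 CPM in WT GMP, so its sum does not measure T and NK cells alone.

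Notch target genes, some of which Ikaros represses in thymocytes, were low. Of 9, 7 were tested in CMP and in MEP, with 2 called higher and 1 lower in each (medians 0.22 and 0.46). In GMP 4 were tested and none was called by edgeR (median 0.16). Over all genes 23.4% were called in CMP, 29.4% in MEP and 33.9% in GMP. The higher genes in both CMP and MEP were Notch3, at 1.03 ± 0.102 and 3.09 ± 1.24 CPM in WT and KO CMP, and Nrarp, at 6.09 ± 1.44 and 11 ± 1.31 CPM (SD, n = 3). Hes1 was the lower gene in both, at 0.64 ± 0.223 and 0.251 ± 0.143 CPM in CMP and at 1.7 ± 0.451 and 0.209 ± 0.114 CPM in MEP (SD, n = 3). In LT-HSC no gene of these lists was called by edgeR, where 18 genes were called in all and 1180 had an unadjusted p under 0.05.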

How the data were processed

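RNA from 22 libraries was quantified by the authors with kallisto on mouse transcripts (mm10), and the deposited files give estimated counts (expected counts, fragments shared between transcripts being divided) and TPM per transcript. TruSeq kits were used for CMP, GMP and MEP and a SMART-Seq v4 kit for LT-HSC. Of 115088 transcripts, 114200 (99.2%) were paired with GENCODE vM21 and summed into 47311 genes. Estimated counts were rounded and tested with edgeR 4.0.16 in R 4.3.3 (TMM, filterByExpr, quasi-likelihood test, Benjamini-Hochberg adjustment over all genes tested, calls at an FDR under 0.1), by population. Comparisons between populations had the mouse as a block. The code was tested on simulated counts. Alternatives were DESeq2 1.42.0, other size factors, no filter, a length offset, a replicate block and leaving out libraries. Totals of 40804031 to 65930737 limit precision at low counts. The members and gene lists were chosen with earlier results of these data known. Named were the members, the 5 genes most alike to each, transcripts with at least 5% of a gene's counts and, of each list, the called genes that changed most. The values of 1 listed gene are not reported here. Samples were grouped by the genotype labels and titles.

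WT and KO mice with consecutive numbers were taken as candidate pairs. Deviations of such pairs from their group means correlated at 0.30 to 0.44 in CMP, 0.39 to 0.48 in GMP, -0.05 to 0.42 in MEP and 0.32 in LT-HSC. The labels do not state a pairing.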

Additional observations from a re-analysis of the deposited data

Results flagged for a closer look

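The KO effect on Ikzf1 differed between populations. The effect in MEP less that in CMP was -0.32 (adjusted p = 0.0134, quasi-likelihood test in edgeR), with all 3 KO libraries above all 3 WT libraries in CMP and overlapping groups in MEP. The KO less WT difference was 0.32 in CMP, where every KO library was above every WT library, and -0.14 in GMP, where every KO library was below every WT library. The difference between CMP and GMP was not tested, because the GMP libraries served to choose the family.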

How the results depend on the processing

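Of 458 alternative values, 389 kept their direction and their side of the threshold or stayed within the stated range. The number of members called in CMP, 2, became 1 with the length offset and with all 18 progenitor libraries in 1 fit (Ikzf2, adjusted p = 0.534 and 0.261, edgeR), and 1 to 2 on leaving out a library. In MEP it was 0 to 1 on leaving out a library. For the KO effect in MEP less CMP it was 2 with the length offset and 1 to 2 on leaving out a mouse. Transcripts called, 1, became 0 with median-of-ratios size factors and without the filter, and 0 to 2 on leaving out a library. With shares of TPM, 4 leading-transcript comparisons passed, and the order of Ikzf1-204 between MEP and the other populations turned. The causes were not tested.

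The replicate block changed no member's call: Ikzf1 in CMP was 0.32 (adjusted p = 0.0007), Ikzf2 was -0.34 in CMP (adjusted p = 0.0201) and -0.87 in MEP (adjusted p = 0.0154, edgeR). It took the genes called in LT-HSC from 18 to 115. That number was 286 without the filter, 248 by DESeq2 and 50 to 2516 on leaving out a library. Genes called fell to 3037 in MEP without KO mouse 301, and without mouse 309 to 5251 for WT GMP against CMP and to 1464 for the KO effect in MEP less CMP.

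Differences that changed sign were not called in either fit. With the length offset they were Ikzf5 in LT-HSC (-0.071), Ikzf1 (-0.077) and Ikzf3 (0.14) in MEP, and Ikzf5 for WT GMP against CMP (-0.091, and -0.012 without the filter). On leaving out each library in turn, values ranged from -0.33 to 0.25 for Ikzf1, -2.0 to 0.20 for Ikzf4 and -0.18 to 0.51 for Ikzf5 in LT-HSC, and from -0.0053 to 0.03 for Ikzf1 and -0.018 to 0.10 for Ikzf5 in MEP. On leaving out each mouse, they ranged for WT MEP against CMP from -0.71 to 0.056 for Ikzf3 and -0.077 to 0.091 for Ikzf5, for Ikzf5 from -0.018 to 0.04 for WT GMP against CMP and from -0.11 to 0.094 for WT GMP against MEP, and for Ikzf3 from -0.55 to 1.03 for the KO effect in MEP less CMP. In GMP the Ikzf3 difference was -2.44 with the length offset and -2.37 without KO mouse 304. The sum of Ikzf1 TPM without its 2 short transcripts, chosen after seeing the data, gave 0.39 in CMP. Low counts limit Ikzf3 and Ikzf4, and the LT-HSC comparison has 2 mice a group.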
